A study of Mus musculus with 11 samples.

Results

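Snord116 is a small nucleolar RNA of the C/D box class. In the table of intensities from the tibialis anterior (TA), a muscle of the lower leg, 21 of the 28350 probe sets carry its symbol, and all 21 are described here. Each probe set is a group of short array probes summarised to 1 value. Snord116 was selected on its rise in mdx against C57 muscle in these same arrays, so its differences between groups are given as measurements with no test.

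Affymetrix Gene ST 1.1 arrays were hybridised with total RNA from 11 mice of 14 weeks of age, 1 array per mouse. The wild-type group was 3 untreated C57 mice and the dystrophic group 4 untreated mdx mice, which carry a stop mutation in Dmd, the gene for the membrane-anchoring protein dystrophin. The treated group was 4 mdx mice given a single dose of 12.5 mg/kg Pip6e-PMO by tail vein at 12 weeks of age. Pip6e-PMO is a morpholino oligonucleotide joined to a cell-entry peptide that makes muscle skip the mutated Dmd exon. All mice carry the strain label C57/B10. The study's methods call the mdx strain C57/Bl10ScSn-Dmdmdx/J and give all mice as male. The RNA came from whole sections of the mid-belly of the muscle, which hold fibres, macrophages, fibroblasts, vessels and nerve. No group is labelled as having received a control oligonucleotide.

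C/D box snoRNAs are cut from introns and work as guides in a particle with the methylase fibrillarin (Fbl), which adds methyl groups to the RNA they pair with. Most guide the modification of ribosomal RNA, whereas Snord116 has no agreed RNA target. It is encoded in many tandem copies inside a long non-coding transcript of the imprinted Prader-Willi domain, which is transcribed from the paternal chromosome from the Snrpn promoter region. Loss of the paternal Snord116 copies is central to Prader-Willi syndrome. The RNA is best known from the brain.

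Facts of the whole series that touch these values are few. The 10 skeletal muscle markers averaged a log2 signal of 12.73 in C57, 12.76 in mdx and 12.76 in treated muscle, so the tissue was muscle in all groups. The Dmd probe set had a mean log2 signal of 5.82 in C57, 5.28 in mdx and 5.80 in treated muscle. The mdx mice ranged from 4.60 to 5.82 and overlapped both the C57 mice (5.77 to 5.87) and the treated mice (5.51 to 6.34). The array cannot show whether the mutated exon was skipped. Treated mouse 2 stood apart: over the 1742 probe sets called between mdx and C57, a median of 92.7% of the mdx difference was left in this mouse, against 67.1%, 79.2% and 76.6% in treated mice 1, 3 and 4. Snord116 values are therefore also given without it.

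The copies were first placed. In RefSeq for the mouse assembly GRCm38.p6, 17 genes named Snord116l lie in the non-coding gene Snhg14, which spans 1177 kb of chromosome 7 on the minus strand. Of these, 15 are 94 bases long and 2 are 90 bases long, and neighbouring starts lie a median of 2532 bases apart. The gene identifier of the deposited Snord116 rows now belongs to Gm26504, a gene of 90 bases with Snord116 among its older names. No file used here holds the letters of the snoRNA or of its probes. The start of the host transcript is shown instead, because the copies are cut from it. RefSeq gives Snhg14 and the longest Snrpn transcript the same start, and the window from 250 bases before to 50 after it is chr7:60450128-60450427. Of the 4 Snrpn windows in RefSeq, the one nearest to the copies is chr7:60005150-60005449. The other 2 lie between them and are not printed. The first and the last are shown 5′ to 3′ on the minus strand, with each CG, the pair that can carry imprinted methylation, in capitals.
Snhg14 and Snrpn, shared start: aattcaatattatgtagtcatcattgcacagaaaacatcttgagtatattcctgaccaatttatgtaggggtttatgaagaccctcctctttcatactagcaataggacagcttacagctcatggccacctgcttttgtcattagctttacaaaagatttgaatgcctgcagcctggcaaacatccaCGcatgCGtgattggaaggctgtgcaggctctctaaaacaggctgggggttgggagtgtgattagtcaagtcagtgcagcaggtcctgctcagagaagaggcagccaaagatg
Snrpn, nearest start: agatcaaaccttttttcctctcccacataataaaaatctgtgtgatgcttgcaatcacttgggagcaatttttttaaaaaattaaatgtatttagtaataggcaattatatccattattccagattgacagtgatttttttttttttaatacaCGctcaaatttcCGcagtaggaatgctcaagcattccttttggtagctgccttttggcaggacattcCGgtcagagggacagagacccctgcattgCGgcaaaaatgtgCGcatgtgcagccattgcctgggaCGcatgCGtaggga

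The shared window holds 2 CG pairs and the nearest one 7, and the 2 between them hold 3 and 4. The median over the 32851 windows of the same length in RefSeq is 7, and 94.6% of those windows hold at least 1. The letters are a description of where the host transcript starts, and methylation was not measured.

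All 21 Snord116 probe sets lie on the minus strand of chromosome 7, at 21 distinct positions from 66931358 to 67047192, a span of 115.8 kb. The build of these deposited positions is not given in the sources used here, and they are not comparable with those of GRCm38.p6 above. Each covers 94 bases. All 21 carry crosshyb_type 3, the array maker's code for sets in which some probes can match other transcripts, against 3118 of all 28350 probe sets. The 21 probe sets gave only 4 distinct profiles over the mice, and 18 shared all 11 values, so the copies are not independent measurements. They are read below as 1 measurement, through the profile of those 18. Whether the probes read the mature snoRNA or the host transcript it is cut from was not tested.

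In C57 muscle the log2 signal of Snord116 was 5.20, 5.43 and 4.65 in mice 1 to 3. In mdx muscle it was 9.91, 9.07, 8.88 and 9.86 in mice 1 to 4. In treated muscle it was 8.08, 9.51, 8.73 and 7.81 in mice 1 to 4. Every mdx and every treated mouse was above every C57 mouse, and the lowest of them was treated mouse 4. Treated mice 1, 3 and 4 were below all mdx mice, and treated mouse 2 lay inside the mdx range.

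The C57 mean was 5.09 ± 0.40 (SD, n = 3). The mdx mean was 9.43 ± 0.53 (SD, n = 4), and that of treated muscle 8.53 ± 0.76 (SD, n = 4). On the linear scale the mean intensity was 34.99 in C57, 725 in mdx and 412 in treated muscle. The intensities of the C57 mice, from 25.1 to 43.1, lay around the mean of 30 that a probe set had to reach in some group to be tested, and those of the other mice lay from 224.4 to 962.

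**Figure D1:**
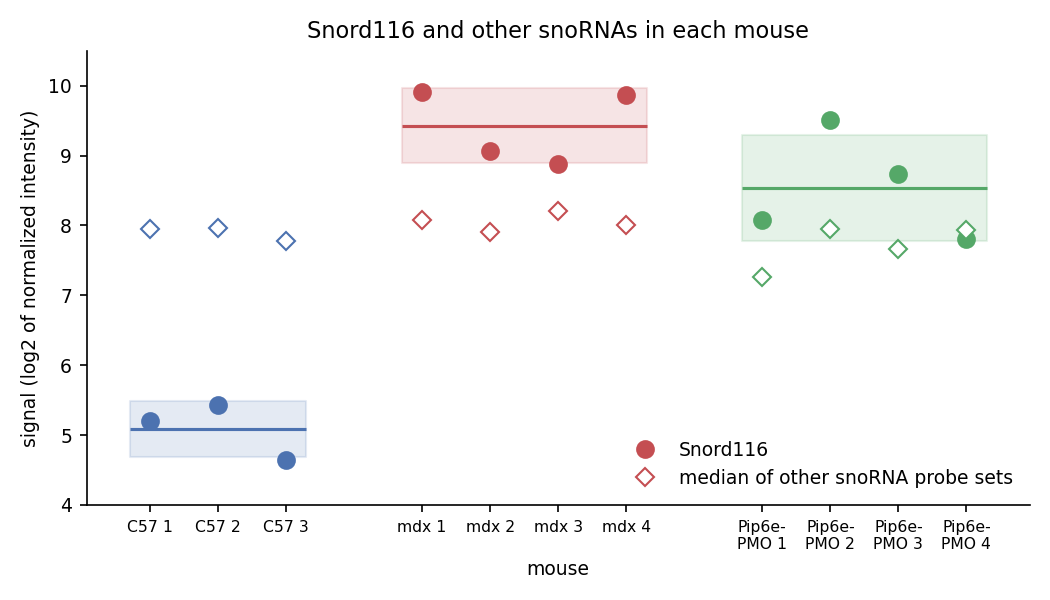
Log2 signal of Snord116 (filled circles) and the median of the 60 distinct profiles of other tested snoRNA probe sets (open diamonds) in each of 11 mice, with the Snord116 group mean as a line and 1 SD either side as a band. Snord116 lies from 4.65 to 5.43 in C57 and from 7.81 to 9.91 in the other mice, while the median of other snoRNAs stays between 7.26 and 8.20, and changes between mice, not heights of the 2 symbols, can be compared.

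Snord116 was 4.34 ± 0.38 (SE) higher on the log2 scale in mdx than in C57 muscle, a fold of 20.2. It was higher in treated than in C57 muscle by 3.44 ± 0.38 (SE), a fold of 10.8. Both folds divide by the dim C57 intensities given above, which stood beside array medians of 27.5, 27.7 and 27.5 over all probe sets, and signals this dim can understate a fold. The treated mean was below the mdx mean by a log2 difference of -0.90 ± 0.35 (SE), a fold of 1.86. Every SE given here comes from the limma fit, which pools the spread over the 3 groups. It also draws that spread toward the spread of all tested probe sets, so these are not SEs of Snord116 alone. The 3 differences share mice and are not independent of one another. Over the 21 probe sets they ranged from 4.22 to 4.34, from 3.31 to 3.44 and from -0.96 to -0.89.

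The spread among treated mice was the widest of the 3 groups. Set against the mdx mean, Snord116 was lower by a log2 of 1.35 in treated mouse 1, by 0.70 in mouse 3 and by 1.62 in mouse 4. These amounts are 31.1%, 16.1% and 37.4% of the mdx minus C57 difference. Treated mouse 2 was 1.85% of that difference above the mdx mean. Without treated mouse 2 the treated mean was lower than the mdx mean by a log2 difference of -1.22, and without treated mouse 4 it was -0.66. Leaving out any of the mice left mdx minus C57 between 4.12 and 4.52.

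The profiles outside the 18 were near copies. One probe set, with 28 probes against 25 for the 18, read between 0.40 and 0.67 log2 lower than them in every mouse, with a range of 4.07 to 5.03 for C57 mice, 8.24 to 9.25 for mdx mice and 7.16 to 8.86 for treated mice. It differed between mdx and C57 by 4.22. The remaining 2 probe sets had means of 5.09 in C57 muscle and differences of 4.34 and 4.32.

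A further 5 probe sets without a symbol lie in or next to the run, on the same strand and also 94 bases long. Together the 26 sets form a row in which 23 of 25 neighbouring starts are under 3000 bases apart, with a median of 2530 and 2 longer gaps of 9634 and 52986 bases. The 3 unnamed sets towards the Snord115 end carry crosshyb_type 3. Their mdx minus C57 differences were 4.42, 4.19 and 3.88, and their treated minus mdx differences -0.98, -0.97 and -0.94. They were high and low in the same mice as the named sets, with no C57 mouse in the range of the others.

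The 2 unnamed sets towards the Snrpn end carry crosshyb_type 1, the code for probes expected to match 1 transcript only. They did not reach the mean signal of 30 that was asked for a test. The first, with 9 probes, read a log2 signal of 3.00, 2.44 and 3.54 in the C57 mice, 5.08, 4.36, 4.29 and 4.46 in the mdx mice, and 3.62, 4.19, 3.92 and 3.73 in the treated mice. Its groups did not overlap, with the treated mice between C57 and mdx. The second, with 17 probes, read 3.47, 3.90 and 3.84 in C57, 4.88, 4.52, 4.59 and 4.65 in mdx, and 4.02, 4.54, 4.14 and 3.64 in treated muscle. Here mdx mice were again above all C57 mice, and the treated range overlapped both. The mdx minus C57 differences of these sets were 1.55 and 0.92, smaller than those of the sets of crosshyb_type 3. Whether signal from near-identical copies differs in the way it enters each set was not tested.

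**Figure D2:**
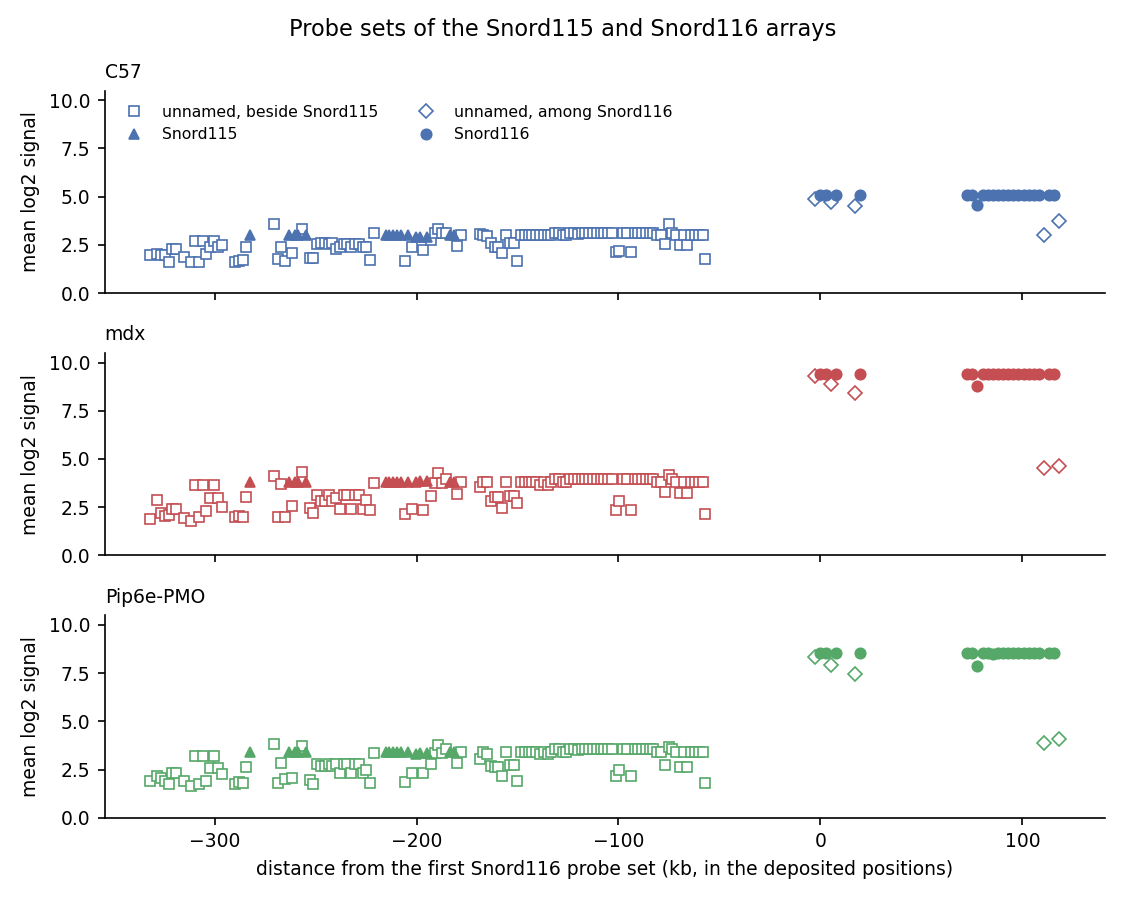
Mean log2 signal of each probe set of the Snord115 and Snord116 arrays against its distance in kb from the first Snord116 set, in C57 (3 mice), mdx (4 mice) and Pip6e-PMO (4 mice) muscle. The 21 Snord116 sets (circles) sit near 5.09 in C57, 9.43 in mdx and 8.53 in treated muscle except for 1 lower set, while the Snord115 sets (triangles) and 116 unnamed neighbours (squares) stay low in all groups.

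Snord115, the other tandem snoRNA of the same host transcript, has 16 named probe sets with 3 distinct profiles, and 116 unnamed sets of 78 or 79 bases stand beside them. The last of these 132 sets ends 54.4 kb before the first of the 26 sets of 94 bases, and the last named Snord115 set ends 181.6 kb before the first named Snord116 set. None of the 132 reached a mean signal of 30 in any group, so none entered the tests over the 14494 probe sets. The median of the named sets was 2.80, 3.16 and 3.02 in the C57 mice, 4.00, 3.33, 3.36 and 4.50 in the mdx mice, and 3.33, 3.99, 3.34 and 2.97 in the treated mice. Mean levels were 2.99, 3.80 and 3.41. All mdx mice were above all C57 mice, by less than the Snord116 difference, and treated mice overlapped both groups. Of the 132 sets, 131 had a higher mean in mdx than in C57 and 131 a lower mean in treated than in mdx muscle, but only 53 profiles are distinct and they share probes and mice. The median difference of the 53 profiles was 0.49 for mdx minus C57 and -0.36 for treated minus mdx. Over all 28350 probe sets these medians were -0.0075 and -0.0425. The share of all probe sets with either sign was not counted. The mice with the highest Snord115 signal, mdx 1 and mdx 4, were also the highest in Snord116.

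With no signal filter, a fit over all 28350 probe sets that was chosen after the data were seen, 12 of the 53 Snord115 profiles passed as higher in mdx than in C57 muscle (limma, adjusted p under 0.05), where 3.57% of all probe sets did. All 12 were unnamed sets, 4 of them of crosshyb_type 1, and no named Snord115 set passed. This count was 3, 4 and 2 without C57 mouse 1, 2 and 3, 4 without mdx mouse 1, 5 without mdx mouse 4 or treated mouse 3, and 21 without treated mouse 2. In treated against mdx muscle 2 of the 53 passed as lower, where 1.96% of all did, and none without mdx mouse 4, treated mouse 1 or treated mouse 4, with 1 without treated mouse 3, 4 without mdx mouse 3 and 9 without treated mouse 2. Between treated and C57 muscle limma called none, and 1 had an unadjusted p under 0.05.

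Genes around the snoRNAs were read from a list of 21 symbols of the Prader-Willi domain and its flanks. Of these, 17 were on the array, and 10 had the signal for a test in the fit across all 14494 tested probe sets (limma, adjusted p under 0.05). In mdx against C57 muscle 12.0% of all tested probe sets passed, 7.06% higher and 4.96% lower. None of the 10 domain genes did, although 3 had an unadjusted p under 0.05, and their median difference was 0.05 against -0.01 over all probe sets. In treated against mdx muscle 2 of 10 were higher and none lower, where 11.1% of all passed, 7.26% higher and 3.88% lower. In treated against C57 muscle 5 of 10 were higher and 1 lower, where 24.6% of all passed, 15.6% higher and 8.96% lower. Median differences of the 10 were 0.27 and 0.37 in these comparisons, against 0.02 and 0.00 over all tested probe sets.

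Snrpn, which encodes a protein of the splicing particle and some of whose transcripts start in the windows printed above, had a log2 signal of 8.82, 8.92 and 9.17 in C57, 8.89, 8.81, 8.86 and 9.01 in mdx, and 8.67, 8.55, 8.75 and 8.67 in treated muscle. The mdx and C57 mice overlapped, with a difference of -0.08 ± 0.10 (SE, limma adjusted p = 0.716). All treated mice were below all others, and treated minus C57 was -0.31 (limma adjusted p = 0.0461). That call was lost without any 1 of 9 of the 11 mice. Side by side, mdx minus C57 was 4.34 for Snord116 and -0.08 for Snrpn.

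Ndn, the paternally expressed gene of necdin, which restrains cell growth, had means of 7.55 in C57, 7.56 in mdx and 7.40 in treated muscle, with no call. Peg12, also paternally expressed, averaged 5.19, 4.92 and 5.01, with no call. Magel2 and Mkrn3, both paternally expressed, had group means from 3.65 to 3.78 and from 2.58 to 2.61, under the signal asked for a test. Ube3a, a ubiquitin ligase that is silenced on the paternal copy in neurons by the host transcript of Snord116, had means of 5.41 in C57, 5.68 in mdx and 5.97 in treated muscle. It rose in treated against C57 muscle by 0.56 (limma adjusted p = 0.0283), a call lost without any of the C57 mice in turn or without treated mouse 3 or 4.

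Some of the flanking genes, which are expressed from both copies, made up the other calls. Tubgcp5, of the microtubule-nucleating complex, rose in treated against mdx muscle by 0.76 (limma adjusted p = 0.0177), and Cyfip1, of the WAVE actin regulator, by 0.66 (limma adjusted p = 0.0289). Against C57 muscle both rose in treated muscle, by 0.68 and 0.81, and so did the magnesium transporter genes Nipa1, by 0.71, and Nipa2, by 0.50. Herc2, a ubiquitin ligase, and Atp10a, a phospholipid flippase, passed in no comparison. The count of 0 in mdx minus C57 was 1 without C57 mouse 1 or mdx mouse 4. The 2 treated minus mdx calls fell to 0 without mdx mouse 4, treated mouse 3 or treated mouse 4, to 1 without mdx mouse 1, mdx mouse 3 or treated mouse 1, and rose to 4 without treated mouse 2. The 6 treated minus C57 calls fell to 3 without C57 mouse 2 or 3 or treated mouse 3 or 4.

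**Figure D3:**
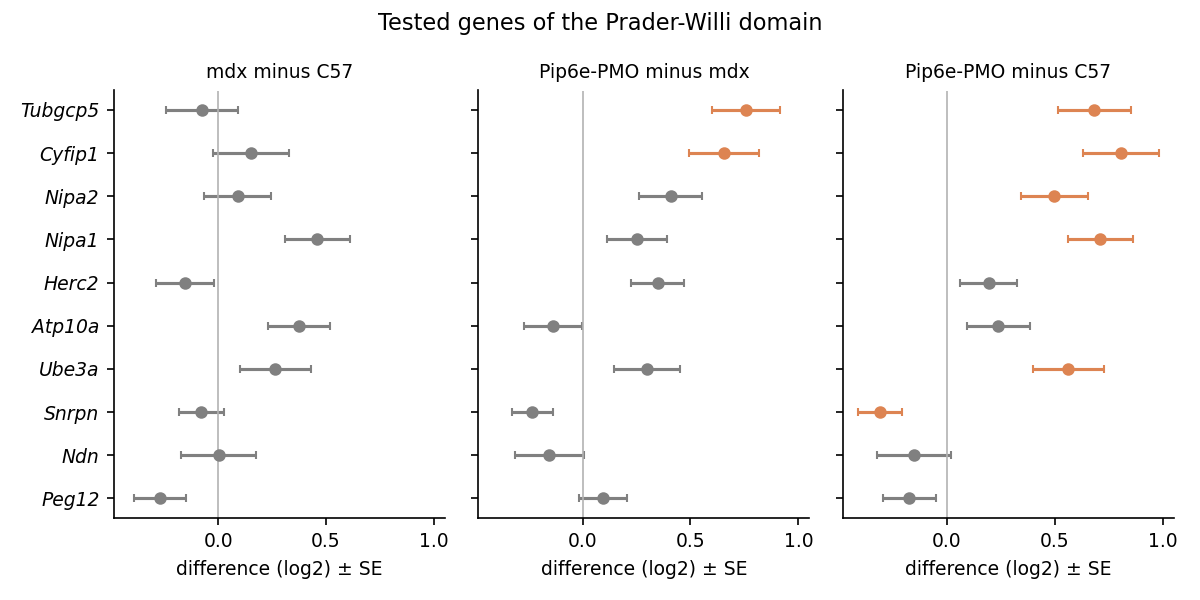
Difference in log2 signal with its SE for the 10 tested genes of the Prader-Willi domain, in the order of the deposited positions from top to bottom, in 3 comparisons; orange marks limma adjusted p under 0.05. No gene is orange in mdx minus C57, where the values lie between -0.27 and 0.46.

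Other snoRNAs were read as background. The table holds 89 probe sets for 65 other snoRNA symbols, Snord115 included, and 63 sets for 57 symbols had the signal for a test. The median over their 60 distinct profiles was 7.95, 7.97 and 7.78 in the C57 mice, 8.07, 7.90, 8.20 and 8.01 in the mdx mice, and 7.26, 7.96, 7.66 and 7.94 in the treated mice. The mdx and C57 ranges overlapped. Treated mice 1 and 3 were below all other mice, and treated mouse 1 was the lowest treated mouse in 52 of the 63 sets.

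In mdx against C57 muscle 1 of the 63 snoRNA sets rose and none fell, against 7.06% higher and 4.96% lower over all probe sets. At an unadjusted p under 0.05 there were 6, and 3 and 4 passed the adjusted threshold without treated mouse 1 and treated mouse 2. Their differences ranged from -0.49 for Snora3 to 0.84 for Snord34, with a median of 0.07. The Snord116 difference of 4.34 is outside that range, as it was selected to be large.

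The call was Snord34, a C/D box guide cut from an intron of the ribosomal protein gene Rpl13a. Its log2 signal was 8.41, 8.67 and 8.12 in C57, 9.44, 9.04, 8.89 and 9.60 in mdx, and 8.15, 9.11, 8.71 and 8.34 in treated muscle. All mdx mice were above all C57 mice, by 0.84 ± 0.23 (SE, limma adjusted p = 0.0359), and the treated mice overlapped both groups. The call was lost without any C57 mouse, without mdx mouse 1, 2 or 4 or without treated mouse 3. Snord35a, from the same host, differed by 0.67 (limma adjusted p = 0.0822). Snord33 and Snord32a, also within this host by position, differed by 0.35 and 0.26 (limma adjusted p = 0.367 and 0.241). Rpl13a itself differed by 0.16 (limma adjusted p = 0.460).

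In treated against mdx muscle 12 of the 63 snoRNA sets fell and none rose, where 3.88% of all tested probe sets fell. Their median difference was -0.44. In treated against C57 muscle 13 fell and none rose, where 8.96% of all fell, with a median of -0.27. These counts rest on single mice. Treated minus mdx gave 34 without treated mouse 2, 7 without mdx mouse 1, 4 without mdx mouse 3, 1 without treated mouse 1 and 0 without mdx mouse 4, treated mouse 3 or treated mouse 4. Treated minus C57 gave 21 without treated mouse 2 and 1 without C57 mouse 2, with 4 to 7 without C57 mouse 1 or 3 or treated mouse 1 or 3.

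Among called sets, the largest falls against mdx muscle were in Snora75 (-1.08), a pseudouridine guide cut from the nucleolin gene Ncl, and Snord87 (-0.93). Snord68 differed by -0.77, Snord35a by -0.74, Snora44 by -0.64 and Snora65 by -0.56, all called. Snord82, also cut from Ncl, fell by 0.48, while the signal of Ncl itself differed by 0.27 (limma adjusted p = 0.123). Snord57 had the smallest adjusted p, with a difference of -0.50 ± 0.11 (SE, limma adjusted p = 0.0196) and values of 11.84, 11.63, 11.69 and 11.78 in mdx against 11.14, 11.47, 11.23 and 11.10 in treated muscle. The small Cajal body RNA Scarna17, a guide for spliceosomal RNA, fell by 0.51 against mdx and by 0.49 against C57 muscle. Among called sets, the largest falls against C57 muscle were in the H/ACA box RNAs Snora75 (-1.04), Snora28 (-0.81), the 2 Snora3 sets (-0.80 and -0.77) and Snora34 (-0.73).

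By class, 6 of 32 C/D box sets, 4 of 28 H/ACA box sets and 2 of 3 Cajal body sets fell in treated against mdx muscle, where 3.88% of all probe sets fell. The 2 Cajal body sets are both Scarna17 and share all 11 values, so they are 1 measurement. Against C57 muscle these counts were 1 of 32, 10 of 28 and 2 of 3, the same Scarna17 sets, where 8.96% of all fell. The 10 H/ACA sets include 2 of Snora3 and 2 of Snora21. These are of crosshyb_type 3 with close values within each pair, so they are not independent measurements. In mdx against C57 muscle the median was 0.20 for the C/D class of Snord116 and -0.10 for the H/ACA class, which guides pseudouridine. Whether the classes differ was not tested.

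The fall of other snoRNAs in treated mice stands beside the lower Snord116 in those mice, and its part in that difference was not tested. Taken relative to the median of the other snoRNAs in each mouse, Snord116 was -2.75, -2.54 and -3.12 in C57, 1.83, 1.17, 0.68 and 1.85 in mdx, and 0.82, 1.55, 1.07 and -0.13 in treated muscle. On this scale C57 mice remained below all others, treated mice 1, 2 and 3 lay inside the mdx range, and treated mouse 4 was below it. The differences were then 4.19 for mdx minus C57, -0.56 for treated minus mdx and 3.63 for treated minus C57.

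**Figure D4:**
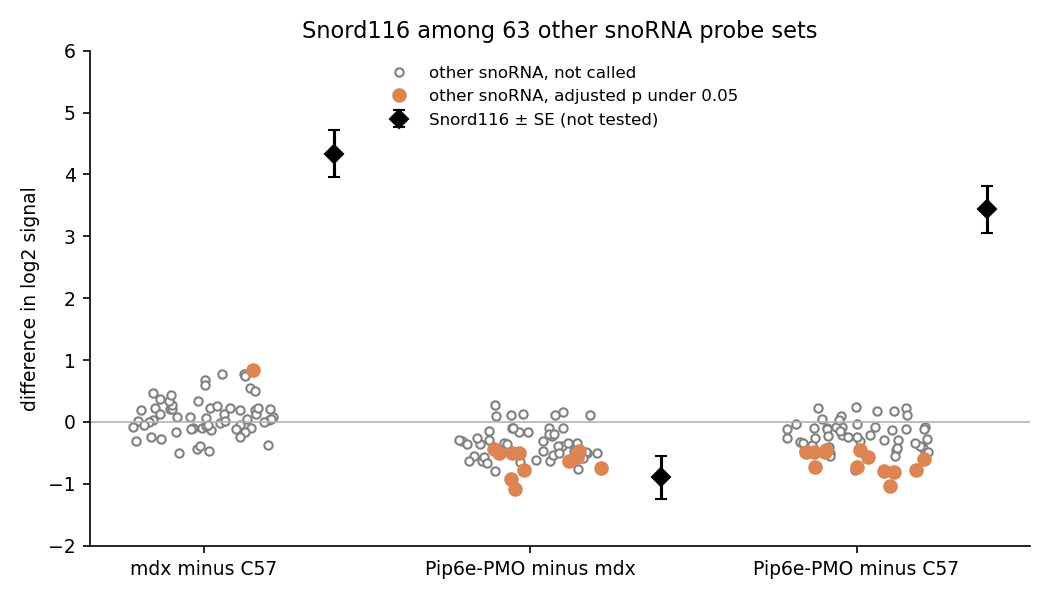
Difference in log2 signal of 63 other snoRNA probe sets (circles, orange where limma adjusted p is under 0.05) and of Snord116 (diamonds with SE, not tested) in 3 comparisons. The other sets lie between -0.49 and 0.84 in mdx minus C57, where Snord116 is at 4.34, and between -1.08 and 0.28 in Pip6e-PMO minus mdx, where Snord116 is at -0.90.

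The proteins that build and carry snoRNAs gave few calls. Of 17 tested genes of snoRNA particles and their assembly, none passed in mdx against C57 or in treated against mdx muscle, with median differences of -0.12 and 0.02. Without treated mouse 2 the latter count was 4. The brightest probe set stands for each gene, and in 3 of the 17 it is of crosshyb_type 3. For Fbl, the methylase of the C/D box particle, that set has 957 bases on chromosome 17 and means of 7.37 in C57, 7.24 in mdx and 7.26 in treated muscle, whereas RefSeq places the gene on chromosome 7. The Fbl set on chromosome 7, of crosshyb_type 1, had means of 7.20, 7.38 and 6.98, also with no call. All 4 sets of Nhp2l1, which binds the C/D box fold, are of crosshyb_type 3, and the brightest, of 387 bases, had means of 11.26, 11.22 and 10.96. Against C57 muscle 2 of 17 fell in treated muscle, namely Nhp2, of the H/ACA particle, (-0.58), and the assembly factor Pih1d1 (-0.30), where 8.96% of all probe sets fell. That count lay between 0 and 4 when single mice were left out.

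Of 22 tested host genes of other snoRNAs, none passed in mdx against C57 (1 without C57 mouse 1, treated mouse 1 or treated mouse 2), and 1 rose and 1 fell in treated against mdx muscle, where 7.26% of all probe sets rose and 3.88% fell. In 6 of the 22 the set used is of crosshyb_type 3, none of them named here. Eif4a2, a translation factor gene, rose by 0.57 (limma adjusted p = 0.0283) and the non-coding host Snhg1 fell by 0.52 (limma adjusted p = 0.0381). Gas5, another non-coding host, had means of 8.11 in C57, 8.54 in mdx and 8.11 in treated muscle, with no call. Some of the 22 sets are as short as snoRNA sets, with 83 bases for Gas5 and 65 for Snhg1. Whether these read the host or a snoRNA cut from it was not tested. Against C57 muscle 3 hosts rose in treated muscle, Eif4a2, Ncl and Hspa8, and Gnb2l1 fell, where 15.6% of all probe sets rose and 8.96% fell. Counts of hosts called lay between 0 and 7 in treated minus mdx and between 1 and 5 in treated minus C57 when mice were left out, with 7 and 5 without treated mouse 2.

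The imprinted Dlk1-Dio3 domain, which also holds tandem C/D box snoRNAs, had 3 tested genes. Dlk1, a growth regulator of the Notch family, fell in mdx against C57 muscle by a log2 difference of -0.33 (limma adjusted p = 0.0423) and in treated against C57 muscle by one of -0.37. The first call was lost without any 1 of the C57 or mdx mice or without treated mouse 3, and the second without C57 mouse 3. Meg3 and Wdr25 passed in no comparison.

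Muscle holds other cells, and fewer cells of a type cannot be told apart from less RNA per cell in these whole samples. Of 8 tested genes of regenerating fibres, 7 rose and none fell in mdx against C57 muscle, where 7.06% of all probe sets rose, with a median of 1.52. Tmem8c (myomaker, for myoblast fusion) rose by 3.28, the fetal receptor subunit Chrng by 2.24, embryonic myosin Myh3 by 1.87 and the myogenic factor Myog by 1.71. All 8 tested macrophage genes rose, with a median of 1.66, led by Mpeg1 (2.58), Lgals3 (2.58), Cd68 (2.12) and Tyrobp (1.86). Of 7 fibroblast genes 3 rose, Postn by 2.16, Lum by 1.56 and Col3a1 by 1.38. The other 4 fibroblast genes were not called, with differences from 0.20 for Col1a1 to 0.56 for Pdgfra. The called genes of these lists moved with Snord116 between mdx and C57 muscle, and their part in its difference was not tested.

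Among Schwann cell genes, the myelin gene Mbp fell in mdx muscle, from a mean log2 signal of 6.82 to 5.82. Of 8 neuronal markers on the array only Syp, of synaptic vesicles, had the signal for a test, and it fell by 0.42 (limma adjusted p = 0.0239), a call lost without C57 mouse 2 or 3 or mdx mouse 1 or 3. The other 7 neuronal markers were under a mean signal of 30 in every group.

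By mouse, the mean log2 signal of the regenerating fibre genes was 5.83 to 5.88 in C57, 7.46, 7.31, 7.94 and 7.12 in mdx, and 6.65, 7.40, 6.47 and 6.16 in treated mice 1 to 4. In the treated group, treated mouse 2 was highest and treated mouse 4 lowest, as for Snord116. Among the mdx mice the order differed, since mdx mouse 3 was highest in these genes and lowest in Snord116. The macrophage genes averaged 5.98 to 6.31 in C57, 7.41, 8.14, 7.67 and 8.02 in mdx, and 6.98, 7.64, 7.08 and 7.18 in treated mice. In treated against mdx muscle 1 of 8 regenerating fibre genes fell (Chrna1, -0.62), and 3 of 8 macrophage genes did (Lgals3, Tyrobp and Cd68, with differences of -1.20, -1.12 and -1.03), where 3.88% of all probe sets fell. None of the 7 fibroblast genes passed in treated against mdx muscle, where 11.1% of all probe sets did. Their median difference was 0.0025, and the list means were 9.37 in mdx and 9.46 in treated muscle. Without treated mouse 2 the count of regenerating fibre genes was 6, and it was 0 without C57 mouse 1 or 2, any mdx mouse or treated mouse 3 or 4. The macrophage count was 0 without mdx mouse 4 or treated mouse 1 or 3, and 1 without treated mouse 4. In treated against C57 muscle 3 of 8 regenerating fibre genes, 5 of 8 macrophage genes and 5 of 7 fibroblast genes rose, where 15.6% of all probe sets did. The first of these counts was 1 without C57 mouse 2 or 3, 5 without mdx mouse 4 and 6 without treated mouse 4, and the last was 3 without C57 mouse 2.

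The genes most like Snord116 across the 11 mice were found by Pearson correlation over 13755 named and tested probe sets, as a description. The points fall in 3 groups whose means differ, so r mostly carries the distance of C57 from the other mice, and 119 probe sets had r of at least 0.9 and 93 had r of -0.9 or below. The highest were Mdfi, an inhibitor of myogenic transcription factors (0.98), the neighbouring decoy receptor genes Tnfrsf23 (0.98) and Tnfrsf22 (0.98), Gprc5b (0.96), Runx1 (0.96), Fbln7 (0.96), Adamts4 (0.95), Clcn5 (0.95), Hfe (0.95) and Ttc9 (0.95). Of these 10, 6 were among the 10 highest without treated mouse 2, and 2 by rank correlation.

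Mdfi had a log2 signal of 5.45, 5.43 and 5.29 in C57, 7.38, 7.30, 7.32 and 8.13 in mdx, and 6.92, 7.53, 7.14 and 6.84 in treated muscle. As for Snord116, treated mice 1, 3 and 4 were below all mdx mice and treated mouse 2 was inside their range. Mdfi was picked for its likeness over these same mice, so this match is no separate result. Runx1, a transcription factor known to be induced in denervated muscle, was 6.72, 6.45 and 6.45 in C57, 8.17, 8.04, 8.47 and 8.36 in mdx, and 8.01, 8.37, 7.93 and 7.96 in treated muscle. The most opposite were 4833439L19Rik (-0.98), the transporter gene Slc15a5 (-0.97), Cyp4f39 (-0.96), St3gal5 (-0.96), which starts ganglioside synthesis, and Acss1 (-0.96), which activates acetate in mitochondria. Slc15a5 was 8.22, 8.09 and 8.40 in C57, 5.85, 6.50, 6.56 and 5.34 in mdx, and 6.18, 5.61, 6.11 and 6.63 in treated muscle.

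With each group's mean removed, a different set led, namely Gm6682 (0.96), Snord34 (0.96), Serf1 (0.94), Trib3 (0.93) and Adamts17 (0.92). These r values describe deviations within groups of 3 or 4 mice. Snord34, the snoRNA called between mdx and C57, ranked 2 of the 13755 probe sets here. A ranking by shared deviations picks genes with the same high and low mice, so the likeness described next is no separate result. Like Snord116, Snord34 was lowest in mouse 3 among the C57 mice and in mouse 3 among the mdx mice. Both were highest in mouse 2 among the treated mice. In the treated group the lowest mouse differed, mouse 4 for Snord116 and mouse 1 for Snord34.

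**Figure D5:**
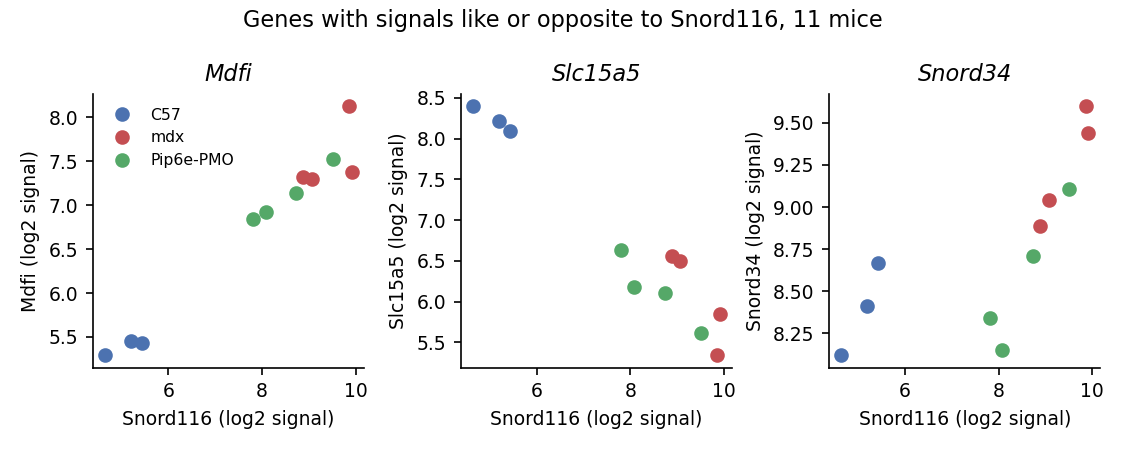
Log2 signal of Mdfi (r = 0.98), Slc15a5 (r = -0.97) and Snord34 (r = 0.74) against that of Snord116 in each of 11 mice, coloured by group. The C57 mice stand alone at the left of each panel, and Snord34 in the treated mice overlaps both other groups.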

How the data were processed

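Total RNA of 11 TA muscles, purified on columns (RNeasy Mini kit) by the study's methods, was hybridised to Gene ST 1.1 arrays. How much RNA as short as a snoRNA the columns kept was not measured. Whether the snoRNA sets read the mature RNA or the longer transcript it is cut from was not tested. The authors made the intensities by RMA in Affymetrix Expression Console and deposited linear values of 28350 probe sets. Their stated removal of dim probe sets had not been applied. Here log2 intensities were used, and the 14494 probe sets whose mean reached 30 in any group were tested. In R 4.3.3, limma 3.58.1 fitted 1 mean per group, and moderated two-sided tests were adjusted by Benjamini-Hochberg over all tested probe sets, with a call at an adjusted p under 0.05 and no minimum fold. The script was tested on simulated data. Lists used the probe set of highest mean signal per gene, and all probe sets for snoRNAs and the Prader-Willi domain.

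Snord116 and the gene lists were chosen with earlier results of these data known. Named were all Snord116 sets and neighbours, all domain genes, called snoRNAs with the largest differences, the 10 most like, 5 most opposite and 5 most like within groups, and up to 4 called genes per other list. The text also names uncalled genes set beside a member, chosen after their values were seen (Fbl, Nhp2l1, Rpl13a, Gas5, Meg3, Wdr25, Snord33 and Snord32a). The snoRNAs Snora44, Snora65, Snord82, Snord57 and Scarna17 were chosen in the same way. Promoter windows are from RefSeq for GRCm38.p6. Alternatives were other priors, filters, scalings, array weights, the replicate block, the methods' t-test and leaving out each mouse. Arrays give no read depth, and 3 or 4 arrays per group limit the precision. Each array is a separate mouse by its label. A gene of the lists is not reported here.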

Additional observations from a re-analysis of the deposited data

Results flagged for a closer look

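A single mouse far from the other 3 of its group was found for these genes named above. The measure was the gap to its nearest neighbour over the range of the group. Chance gives this in about 1 of 20 groups. The mdx and treated groups of Snord116, its snoRNA references, all tested domain genes and all called snoRNAs were looked at. So were those of the genes most like, most opposite and most like within groups, and some such mice thus arise by chance. Cyfip1 was 6.68 in mdx mouse 2 against 6.30 to 6.36 in the other mdx mice. Mdfi was 8.13 in mdx mouse 4 against 7.30 to 7.38, and Gprc5b was 9.19 in the same mouse against 8.88 to 8.90. The probe set 4833439L19Rik was 10.92 in mdx mouse 3 against 10.78 to 10.80. Both probe sets of Scarna17, which share all values, were 9.92 in treated mouse 2 against 9.50 to 9.56 in the other treated mice. Snord116 itself had no such mouse.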

How the results depend on the processing

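The Snord116 differences kept their sign and moved by less than 1 residual SD of the limma fit under every alternative run. Among these were array weights, centring, repeated quantile normalization, group medians, linear means and, chosen after seeing the data, the snoRNA median as reference. With single mice left out, treated minus mdx still ran from -1.22 to -0.66. Relative to the snoRNA median it was -0.56. With a replicate block the differences were 4.39 between mdx and C57, -0.90 between treated and mdx, and 3.49 between treated and C57 muscle. Counts of calls moved, in that order of comparisons. For snoRNAs they were 1, 12 and 13. With only the groups compared they became 4, 6 and 6, with array weights 5, 31 and 26, with the replicate block 0, 0 and 5, and by the methods' t-test after adjustment 0, 0 and 1. With centred arrays the treated counts were 23 and 20, and mdx minus C57 gave 2 with a trended and robust prior and 0 with no signal filter. Leaving out single mice gave 0 to 4, 0 to 34 and 1 to 21. For the Prader-Willi domain the counts were 0, 2 and 6. Array weights gave 2 and 4 in the first 2 comparisons. A minimum signal of 100 gave 1 and 2 in the treated comparisons, the replicate block 1 for treated minus mdx, repeated quantile normalization 3 for treated minus C57, and the methods' t-test 0 and 1. Leaving out single mice gave 0 to 1, 0 to 4 and 3 to 6. The cause of these moves was not tested. Under the alternatives, counts of the other lists stayed within 1.5 times in 451 cases and moved further in 113. Dim signals limit the domain genes, Snord115, Snord116 in C57 muscle and the copies with unique probes. The replicate numbers behind the block were not taken to pair the mice: deviations from the group means of same-numbered mice correlated with a median r of -0.08, from -0.30 to 0.15.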
